A study of Mus musculus with 45 samples.

Results

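The 7 genes described here, Zfp703, Zfp503, Zbtb16, Tshz1, Tshz2, Tshz3 and Tle6, were followed in neuroepithelial organoids grown from R1 cells, a wild-type mouse embryonic stem cell line. They were chosen by their levels with and without all-trans retinoic acid (RA) in these same libraries, as regulators that RA raised, and all 7 were found by Ensembl gene ID among the 54532 genes counted. Because the genes were selected on that contrast, its values are given for them as a description without a test. The label under which the genes were listed, zinc finger regulators, holds for 6 of them. Tle6 belongs to the Groucho/TLE family of WD-repeat corepressors and has no zinc finger.

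Single R1 cells were grown clonally in Matrigel, a basement-membrane gel, in N2B27 medium without serum. On day 2 the medium was renewed without RA (untreated) or with 250 nM all-trans RA, and poly(A) RNA was sequenced from day 2 organoids and at 7 later times in each arm, the first 8 h and the last 78 h after day 2. Each of these 15 conditions had 3 biological replicates, which gave 45 libraries. All libraries are described as grown from that 1 line, and no second genotype is named. Levels of Y-chromosome genes differed between libraries, as given below, and whether all hold the same genotype was not tested. The protocol field of the labels gives the RA dose with the unit µM in place of nM and lists other late sampling times. The times and arms used here are those of the sample titles.

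RA is a small lipid that enters cells and binds nuclear RA receptors, which sit on DNA beside their target genes, and in the embryo it patterns the hindbrain and spinal cord. Zfp703 and Zfp503 are the mouse members of the NET (Noc, Nlz and Elbow) family of zinc finger corepressors, whose zebrafish relatives act in hindbrain segmentation. Zbtb16, also called PLZF, carries a BTB domain and Krüppel-type zinc fingers, recruits corepressors, and was first known as the partner of the RA receptor alpha in a leukaemia fusion. Tshz1, Tshz2 and Tshz3 are the vertebrate counterparts of Drosophila teashirt, a homeotic trunk gene, and encode zinc finger transcription factors with a homeodomain. Tle6 is a short TLE protein best known from the subcortical maternal complex of the oocyte and early embryo.

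Promoter windows of RefSeq (GRCm38.p6), each running from 250 bases before to 50 bases after a transcription start, were matched for 4 of the 7 genes. They are shown for Zfp503, which RA raised at every time with the highest level late, and for both starts of Tle6, which RA raised most at the first 2 times. The capitals mark the core hexamers of an RA receptor site that were searched, AGGTCA, the variants GGGTCA and AGTTCA, and also the variant GGTTCA, on either strand.
Zfp503, chr14:21989552-21989851, minus strand: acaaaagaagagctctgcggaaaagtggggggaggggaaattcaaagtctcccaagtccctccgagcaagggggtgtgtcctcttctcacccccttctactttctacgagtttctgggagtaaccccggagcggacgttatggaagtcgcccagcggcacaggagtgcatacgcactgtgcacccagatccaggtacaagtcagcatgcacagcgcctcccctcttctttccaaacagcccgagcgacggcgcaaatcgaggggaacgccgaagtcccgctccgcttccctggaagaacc
Tle6, first start, chr10:81600851-81601150, minus strand: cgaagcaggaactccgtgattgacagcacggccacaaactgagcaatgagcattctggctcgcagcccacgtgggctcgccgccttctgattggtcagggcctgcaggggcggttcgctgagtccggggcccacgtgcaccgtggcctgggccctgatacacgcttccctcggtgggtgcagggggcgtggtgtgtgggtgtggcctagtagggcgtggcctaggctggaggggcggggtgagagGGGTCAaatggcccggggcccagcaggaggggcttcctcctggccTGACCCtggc
Tle6, second start, chr10:81597318-81597617, minus strand: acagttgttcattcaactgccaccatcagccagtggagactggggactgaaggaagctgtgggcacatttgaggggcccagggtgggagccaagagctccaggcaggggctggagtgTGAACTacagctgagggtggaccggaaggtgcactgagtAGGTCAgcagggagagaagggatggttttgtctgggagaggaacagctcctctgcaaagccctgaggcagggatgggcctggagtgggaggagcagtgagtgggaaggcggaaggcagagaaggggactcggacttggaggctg
The Zfp503 window holds none of the hexamers, and each Tle6 window holds 2. In the first Tle6 window GGGTCA begins at -5 and TGACCC at 40, counted from the start site, and in the second TGAACT begins at -133 and AGGTCA at -94. The Tshz2 window holds 1 hexamer, TGAACT at -207, and the Tshz3 window none. At least 1 hexamer is present in 43.7% of all 32851 windows, so that its presence in 2 of these 4 genes is a description only. Paired hexamers in the same direction with a spacer of 1, 2 or 5 bases, which overlap the single hexamers by construction and occur in 0.22%, 0.27% and 0.1% of all windows, were found in none of them.

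The genes lie apart in the mouse genome (GRCm38, positions from GENCODE M21), and all are protein-coding. Zfp703 is at chr8:26977325-26981461 on the plus strand and spans 4.14 kb with 3 exon blocks. Zfp503 is at chr14:21983959-21989601 on the minus strand. Zbtb16 is at chr9:48654297-48836222 on the minus strand and covers 182 kb. Tshz1 is at chr18:84011627-84087706 on the minus strand, Tshz2 at chr2:169633013-170071816 and Tshz3 at chr7:36698118-36773553, both on the plus strand. Tle6 is at chr10:81590904-81601073 on the minus strand, 59 bases from the end of Tle2 on the opposite strand.

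The libraries held between 17298632 and 39688686 counted reads, with a median of 25923745, so that 3 counts, taken here as the smallest detected amount, correspond to at most 0.173 CPM (counts scaled to library size). Levels are CPM after TMM scaling over all 45 libraries. Some libraries stand apart from their groups. The mean of 4 Y-chromosome genes (Ddx3y, Eif2s3y, Kdm5d and Uty) lay between 1.22 and 3.65 CPM in 6 libraries and between 22.9 and 89.5 CPM in the other 39. The 6 are the third replicate of RA at 8 h, all 3 untreated libraries at 30 h and replicates 1 and 3 of RA at 30 h. Library numbers in the titles fall into an earlier and a later series. The later series holds all libraries of 66 h and 78 h, replicate 3 of day 2, replicate 3 of untreated 54 h and replicates 2 and 3 of RA at 30 h. Markers of the cell state moved with time and with RA. The neuroepithelial marker Sox1 was near absent on day 2, at 2.10 CPM. At 78 h it reached a mean of 169 CPM in untreated organoids and 95.4 CPM with RA. Sox2, which pluripotent cells also express, was highest on day 2 with 406 CPM and stood at 220 CPM in untreated organoids at 78 h. Of 6 neuroepithelial markers (Sox1, Sox2, Sox3, Pax6, Nes and Cdh2), RA raised Pax6 at 4 times, Cdh2 at 3 and Sox1 at 2, and lowered none. Their sum ran from 354 to 368 CPM with RA against 411 to 458.5 CPM without at 8 h. At 30 h it ran from 655 to 914 against 465 to 491 CPM, and at 78 h from 1069 to 1241 against 950 to 1111 CPM. Of 4 pluripotency markers, Pou5f1, Nanog, Zfp42 and Klf4, the sum ran from 1351 to 1492 CPM on day 2, from 95.4 to 183 CPM with RA against 619 to 684 CPM without at 54 h, and from 191 to 351 against 377 to 457 CPM at 78 h. Pou5f1 carried this difference and was lowered by RA at 6 of 7 times, from 18 h on, Klf4 was raised at 2 times, and Nanog and Zfp42 were not called. A sum of 4 endoderm markers (Sox17, Foxa2, Gata4 and Gata6) was higher in every RA group than in the untreated group of its time, from 7.24 to 11.1 against 1.94 to 3.94 CPM at 8 h and from 20.0 to 21.8 against 2.83 to 3.09 CPM at 78 h. All 4 were raised by RA at 1 or more times, and Sox17 was at 0 in at least 1 library. A sum of 5 mesoderm markers (T, Tbx6, Meox1, Mesp1 and Foxc2) ran from 31.1 to 33.6 CPM with RA against 2.72 to 4.20 CPM without at 18 h, and from 7.27 to 8.22 against 4.39 to 7.53 CPM at 78 h. Meox1 made up most of it at 18 h. The highest Meox1 value over all 45 libraries, 37.5 CPM, was above the sum in any library of 18 h and came from another time. Meox1 was raised by RA at 6 times and Foxc2 at 4, whereas T was lowered at 5 of 7 times and Tbx6 was not called. Markers of further cell types went both ways. At 1 or more times RA raised 3 of 5 neuron markers and lowered 1, and raised 2 of 3 motor neuron markers and lowered 1. It raised 3 of 4 neural crest markers and lowered 1, and raised 4 of 4 fibroblast markers and lowered 2. Of all genes tested, 16.0% were raised and 9.14% lowered at 1 or more times. Foxd3 of neural crest was lowered at all 7 times and Stmn2 of neurons at 4. The neural crest sum was 8.90 to 10.8 CPM with RA against 47.85 to 56.15 CPM without at 8 h. Because these are bulk samples, fewer cells that express a gene and less RNA per cell cannot be told apart, and the part of the cell state or of other cell types in the values below was not tested.

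**Figure D1:**
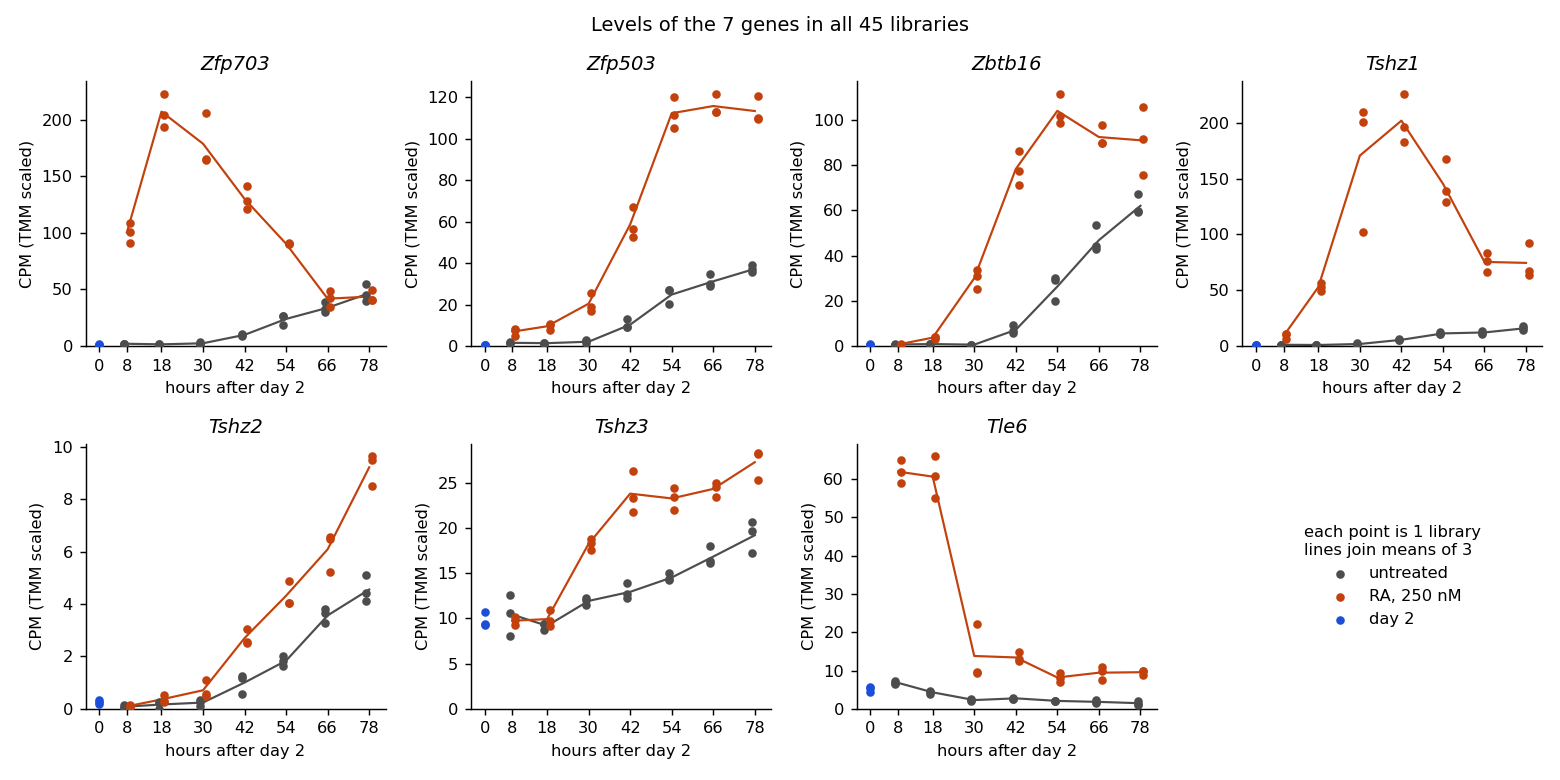
Level of each gene in CPM against hours after day 2, with 1 point for every library, lines through the means of 3 replicates, day 2 at 0 h, untreated organoids in grey and RA in orange; each panel has its own vertical axis that starts at 0. Tle6 and Zfp703 reach their highest RA means at 8 h and 18 h, Tshz1 at 42 h, Zbtb16 at 54 h, Zfp503 at 66 h, and Tshz2 and Tshz3 at 78 h.

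A gene was counted as raised in a comparison when its edgeR quasi-likelihood p, adjusted over all genes tested, was below 0.01 and its log2 fold change exceeded 1. Of the 7 genes, 4 were raised by RA at 8 h (1.26% of all genes tested), 5 at 18 h (8.17%), 5 at 30 h (5.98%), 6 at 42 h (7.49%), 6 at 54 h (7.17%), 3 at 66 h (7.06%) and 4 at 78 h (7.66%). Since the genes were picked on this contrast, nothing is read from these shares. None of the 7 was lowered at any time, and 6 were raised at 1 or more times, among 16.0% of all 18352 genes tested. Tshz3 is the gene that never passed, so that for it the word raised does not hold at these thresholds. Within the earlier library series at 30 h, where 1 RA and 3 untreated libraries remain, the log2 ratios of mean CPM were 6.37 for Zfp703, 3.15 for Zfp503, 5.73 for Zbtb16, 6.79 for Tshz1, 1.04 for Tshz2, 0.65 for Tshz3 and 2.09 for Tle6. At 54 h, leaving out the untreated library of the later series moved no value by more than 0.10, and the libraries of every other time came from 1 series. Near the fold threshold, Zbtb16 at 66 h fell just outside with a log2 fold change of 0.99 ± 0.08 (SE), and Tshz2 at 78 h just inside with 1.04 ± 0.13 (SE). The Zbtb16 value was 1.10 without replicate 3 of untreated 66 h and 1.01 without replicate 2 or replicate 3 of RA at 66 h, and passed each time, and without replicate 2 or 3 of untreated 78 h the Tshz2 value was 0.95 or 1.00 and did not.

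**Figure D2:**
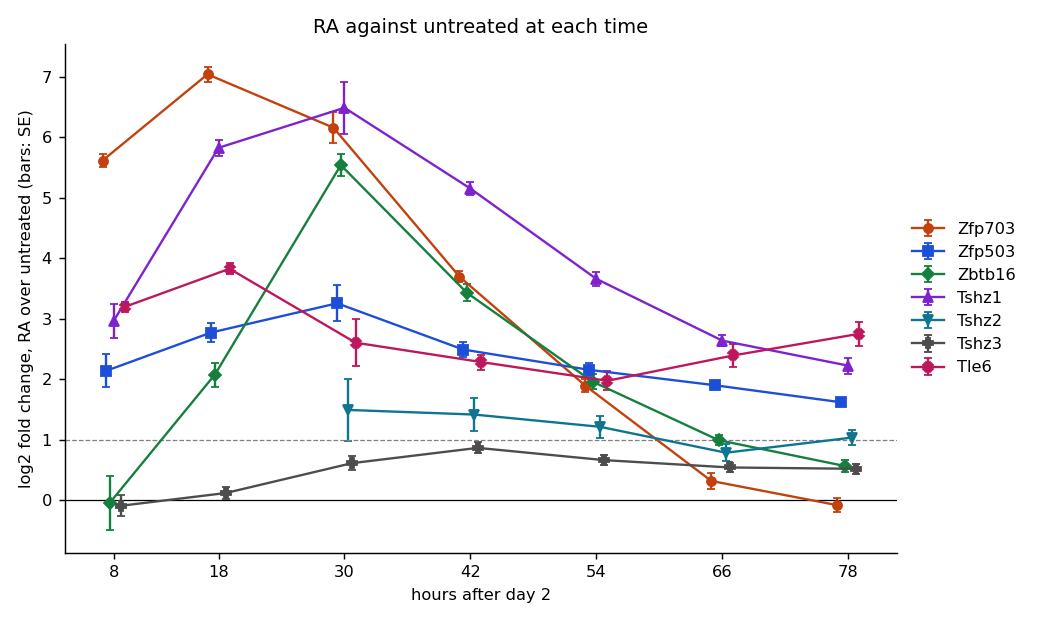
Log2 fold change of RA over untreated organoids at each time for the 7 genes, with bars of 1 SE from the edgeR fit of 3 against 3 libraries; the dashed line marks the fold threshold of 1. Zfp703 peaks at 7.04 at 18 h and ends at -0.08, Tle6 stays between 1.98 and 3.83, and Tshz3 reaches 0.87 at most; Tshz2 has no value at 8 h and 18 h because too few reads were counted.

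Zfp703 had the largest log2 fold change of the 7 genes at 8 h and at 18 h. Its level was 1.22 ± 0.24 CPM (SD, n = 3) on day 2, and after 8 h of RA it read 109, 101 and 90.8 CPM in the 3 libraries, against 2.03, 2.04 and 2.07 CPM untreated. At 18 h of RA the values were 194, 204 and 223 CPM against 0.99, 1.90 and 1.73 CPM. RA and untreated libraries did not overlap from 8 h to 54 h. The log2 fold change was 5.62 ± 0.10 (SE) at 8 h, 7.04 ± 0.12 at 18 h, 6.16 ± 0.26 at 30 h, 3.70 ± 0.09 at 42 h and 1.89 ± 0.11 at 54 h.

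The Zfp703 level under RA then fell while the untreated level rose, and the arms met. The RA mean was 207 CPM at 18 h, 90.3 CPM at 54 h and 43.7 ± 5.40 CPM (SD, n = 3) at 78 h, which is 21.1% of its highest RA mean. In untreated organoids it rose from 1.54 CPM at 18 h to 46.7 ± 7.72 CPM at 78 h. At 66 h and 78 h the libraries of the arms overlapped, with log2 fold changes of 0.32 ± 0.13 and -0.08 ± 0.11 (SE). The antisense gene Gm45371 shares 459 of the 3392 exon bases of Zfp703 and reached at most 7 counts in any library.

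Tle6 was the other gene that stood at its highest RA mean within the first 18 h. It read 65.0, 59.1 and 61.9 CPM at 8 h of RA against 6.42, 6.66 and 7.27 CPM untreated, and 55.2, 66.0 and 60.8 CPM at 18 h against 4.65, 3.80 and 4.46 CPM. By 30 h its RA values were 9.72, 22.3 and 9.38 CPM, with replicate 2 at 2.33 times the mean of the other 2 libraries. From 42 h to 78 h the RA means lay between 8.18 and 13.4 CPM, or 13.2% to 21.6% of the highest mean.

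The level of Tle6 was thus transient under RA, while a difference from untreated organoids, smaller from 30 h on, remained at 78 h. Its log2 fold change was 3.20 ± 0.09 (SE) at 8 h, 3.83 ± 0.09 at 18 h, 2.6 ± 0.39 at 30 h, 1.98 ± 0.16 at 54 h and 2.75 ± 0.19 at 78 h, and the arms overlapped at no time. The untreated level fell meanwhile from 6.78 ± 0.44 CPM (SD, n = 3) at 8 h to 1.45 ± 0.46 CPM at 78 h. Without replicate 2 of RA at 30 h, which is the RA library of that time with high Y-chromosome genes and whose endoderm markers summed to 25.8 CPM against 4.48 and 4.57 CPM in the others, the 30 h value was 2.04. The 30 h value did not pass the thresholds once any 1 of the 3 untreated libraries of 30 h was left out, with values between 2.51 and 2.64.

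Tshz1 was raised from the first time point to the last. Day 2 organoids held 1.16 ± 0.07 CPM (SD, n = 3). At 8 h of RA the libraries read 10.4, 11.2 and 6.02 CPM against 1.10, 1.29 and 1.16 CPM untreated, with the third RA library at 0.557 times the mean of the other 2. At 18 h they read 56.2, 49.4 and 52.8 CPM against 0.99, 1.28 and 0.67 CPM. The highest mean came at 42 h, with 226, 196 and 183 CPM against 5.38, 6.35 and 5.16 CPM. At 78 h the RA libraries still read 67.3, 63.9 and 92.4 CPM against 16.3, 14.4 and 17.6 CPM.

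RA libraries of Tshz1 lay above untreated libraries at all 7 times. The log2 fold change was 2.96 ± 0.28 (SE) at 8 h, 5.83 ± 0.14 at 18 h, 6.49 ± 0.43 at 30 h, 5.15 ± 0.10 at 42 h, 3.66 ± 0.11 at 54 h, 2.64 ± 0.10 at 66 h and 2.23 ± 0.13 at 78 h. At 30 h replicate 2 of RA held 102 CPM against 210 and 201 CPM in the others, and without it the value was 6.75. Without the third replicate of RA at 8 h, whose Y-chromosome genes were low, the 8 h value was 3.18. The 8 h call was lost when any 1 of the 3 untreated libraries was left out, with values between 2.92 and 3.03.

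Zfp503 rose in both arms and RA kept it higher throughout. It read 8.01, 7.98 and 4.86 CPM at 8 h of RA against 1.32, 1.39 and 2.02 CPM untreated, and 120, 105 and 112 CPM at 54 h against 20.1, 27.3 and 27.2 CPM. From 54 h to 78 h the RA mean stayed between 112 and 116 CPM, which is 97.0% or more of its highest value. The log2 fold change went from 2.14 ± 0.27 (SE) at 8 h to 3.26 ± 0.30 at 30 h and 1.62 ± 0.06 at 78 h, and RA libraries lay above untreated ones at every time. Without the third replicate of RA at 8 h the first value was 2.32, and without replicate 2 of RA at 30 h the 30 h value was 3.00. The 8 h call was lost, at values between 2.03 and 2.35, when any 1 of the other 5 libraries of that time was left out.

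Zbtb16 was not raised at 8 h and was raised from 18 h to 54 h. At 8 h of RA it read 0.59, 1.13 and 0.39 CPM against 0.93, 0.65 and 0.63 CPM untreated, and these libraries overlapped. At 18 h the values were 3.95, 3.30 and 3.91 CPM against 1.04, 0.78 and 0.85 CPM. At 30 h they were 33.8, 25.1 and 31.0 CPM against 0.64, 0.61 and 0.66 CPM. From 18 h on, the RA libraries lay above the untreated ones at every time.

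The RA level of Zbtb16 was lasting while its difference from untreated organoids shrank. The highest RA mean was 104 ± 6.82 CPM (SD, n = 3) at 54 h, and 87.5% of it remained at 78 h. The untreated mean climbed from 0.64 CPM at 30 h to 62.0 ± 4.38 CPM at 78 h. The log2 fold change was -0.04 ± 0.45 (SE) at 8 h, 2.08 ± 0.20 at 18 h, 5.54 ± 0.18 at 30 h, 3.43 ± 0.14 at 42 h, 1.96 ± 0.13 at 54 h and 0.57 ± 0.10 at 78 h.

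Tshz2 and Tshz3 had the smallest peak differences of the 7 genes, with log2 fold changes of 1.49 or lower wherever they were tested. At 66 h and 78 h both nevertheless lay above Zfp703, and at 78 h Tshz2 also lay above Zbtb16. Tshz2 had 1 to 3 counts in each library of 8 h and 0 in 1 untreated library of 18 h, and at both times it did not pass the filter on low counts, so that no fold is given. It read 3.03, 2.56 and 2.52 CPM at 42 h of RA against 1.18, 1.26 and 0.58 CPM untreated, and 9.65, 9.52 and 8.51 CPM at 78 h against 5.11, 4.13 and 4.43 CPM. Its log2 fold change was 1.49 ± 0.51 (SE) at 30 h, 1.42 ± 0.28 at 42 h, 1.21 ± 0.18 at 54 h, 0.79 ± 0.14 at 66 h and 1.04 ± 0.13 at 78 h, and it passed the thresholds at 42 h, 54 h and 78 h.

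The Tshz2 counts carry a further uncertainty. The gene Gm26883 on the opposite strand covers 5076 of the 7781 exon bases of Tshz2, and the strand setting of the counting is not given in the sources used here, so that reads of these genes may be mixed. Gm26883 itself fell from 3.18 ± 0.67 CPM (SD, n = 3) on day 2 to 0.27 ± 0.16 CPM after 78 h without RA, with a log2 fold change of -3.60 ± 0.36 (SE; edgeR adjusted p = 1.3e-07).

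Tshz3 held 9.79 ± 0.78 CPM (SD, n = 3) on day 2, and its RA difference stayed under the fold threshold at every time. At 8 h it read 9.81, 10.1 and 9.28 CPM with RA and 8.01, 12.6 and 10.6 CPM without. At 42 h it read 26.2, 23.3 and 21.8 CPM against 12.7, 13.9 and 12.2 CPM, and at 78 h 25.3, 28.3 and 28.2 CPM against 17.2, 20.7 and 19.7 CPM. RA libraries lay above untreated libraries from 30 h on, and the log2 fold change reached 0.87 ± 0.09 (SE) at 42 h.

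**Figure D3:**
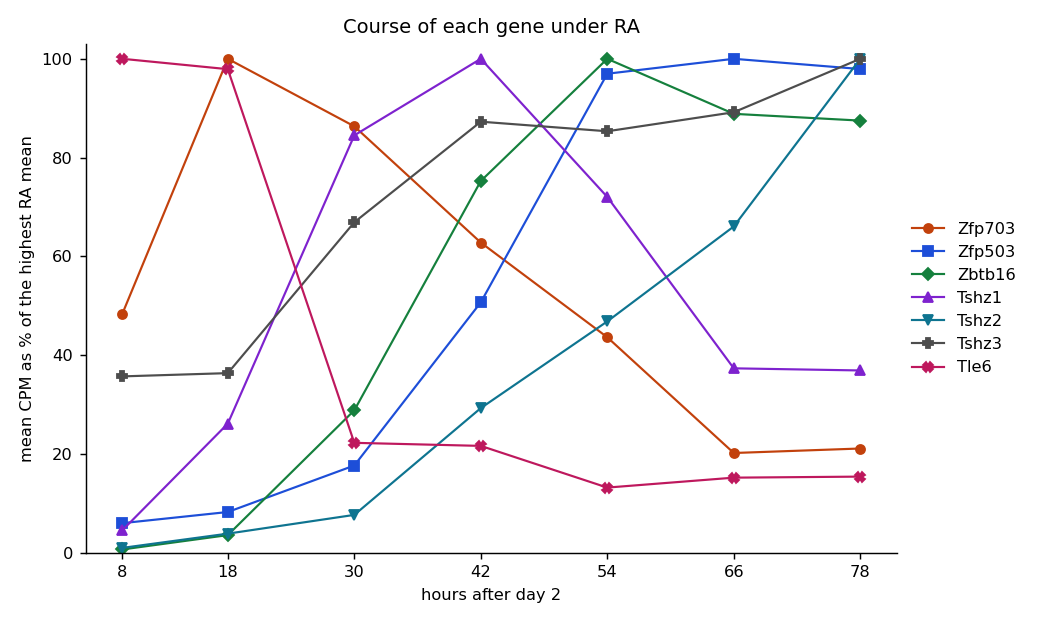
Mean CPM under RA at each time as a percentage of the highest RA mean of the same gene, against hours after day 2. Tle6 is at 100% at 8 h and at 22.3% by 30 h, Zfp703 declines after 18 h and ends at 21.1%, Tshz1 ends at 36.9%, and Zfp503, Zbtb16, Tshz2 and Tshz3 end between 87.5% and 100%.

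Set side by side, the genes kept different shares of their RA level. All libraries of 66 h and 78 h are of the later series, so that the time and the series cannot be told apart there. At 54 h, where the RA libraries are of the earlier series, Tle6 stood at 13.2%, Zfp703 at 43.6% and Tshz1 at 72.0% of the highest RA mean, and Tshz1 stood at 37.3% at 66 h. At 78 h the level was 15.4% of the highest RA mean for Tle6, 21.1% for Zfp703 and 36.9% for Tshz1. For Zbtb16, Zfp503, Tshz2 and Tshz3 it was 87.5%, 97.9%, 100% and 100%. The order differs for the ratio of RA to untreated mean CPM, which at 78 h was 6.59 for Tle6, 4.63 for Tshz1, 3.04 for Zfp503, 2.02 for Tshz2, 1.47 for Zbtb16, 1.42 for Tshz3 and 0.937 for Zfp703. For Tle6 this ratio was 14.1 at 18 h and 3.98 at 54 h, so that it fell and yet was the largest of the 7 at 78 h. Zbtb16 held most of its level, while its ratio went from 47.0 at 30 h to 1.47 at 78 h.

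Levels per kilobase of exon (RPKM, from the same CPM and the annotated exon length) put the genes in a different order at each stage. On day 2 Tshz3 with 1.79 ± 0.14 RPKM (SD, n = 3) and Tle6 with 1.65 ± 0.23 RPKM stood highest, and their libraries overlapped. At 8 h of RA Zfp703 led with 29.5 ± 2.65 RPKM, followed by Tle6 with 20.1 ± 0.96 RPKM and, far lower, Tshz3 with 1.78 ± 0.08 RPKM. At 42 h of RA Zfp703 with 38.3 ± 3.13 RPKM and Tshz1 with 34.5 ± 3.76 RPKM overlapped at the top, above Zbtb16 and Zfp503, which overlapped each other at 14.8 ± 1.42 and 13.9 ± 1.78 RPKM. At 78 h of RA Zfp503 stood first with 26.9 ± 1.49 RPKM, and the libraries of Zbtb16, Zfp703 and Tshz1, at 17.2, 12.9 and 12.8 RPKM, each overlapped the next in order. Tshz2 was last under RA at all 7 times, with 1.19 ± 0.08 RPKM at 78 h.

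The untreated course was compared with day 2 in edgeR fits of 3 against 3 libraries. The untreated libraries are also the controls of the contrast the genes were chosen on, and the 7 comparisons share the day 2 libraries. Of the 7 genes, 1 was called higher at 8 h (0.409% of all genes tested), 1 at 18 h (3.20%), 2 at 30 h (11.9%), 5 at 42 h (13.2%), 5 at 54 h (15%), 5 at 66 h (18.2%) and 5 at 78 h (20.3%). The 5 are Zfp703, Zfp503, Zbtb16, Tshz1 and Tshz2. Tle6 was called lower at 30 h (10.7% of genes tested), 54 h (11.0%), 66 h (12.6%) and 78 h (13.6%).

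Zfp503 was the gene called higher at all 7 times, from a log2 fold change of 1.63 ± 0.32 (SE; edgeR adjusted p = 0.003) at 8 h to 6.17 ± 0.13 (edgeR adjusted p = 1.2e-15) at 78 h. Its day 2 libraries held 0.41, 0.65 and 0.50 CPM and its untreated libraries at 78 h 35.6, 37.2 and 39.1 CPM. The early calls are fragile. Leaving out replicate 1 of day 2, or replicate 2 or 3 of untreated 8 h, ended the call at 8 h, and leaving out replicate 1 of day 2, or replicate 1 or 3 of untreated 18 h, ended it at 18 h.

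Zbtb16 rose by 6.54 ± 0.15 (log2, SE; edgeR adjusted p = 3.2e-15) at 78 h, from 6 to 24 counts in the day 2 libraries, and was not called before 42 h, where it stood at 3.47 ± 0.31 (edgeR adjusted p = 1.3e-07). Zfp703 rose by 5.25 ± 0.16 (edgeR adjusted p = 4.0e-14) at 78 h. Its first call, 1.04 ± 0.30 at 30 h (edgeR adjusted p = 0.0043), was lost without replicate 1 or 2 of day 2, without replicate 3 of untreated 30 h, and with DESeq2. Tshz1 was called from 42 h on and reached 3.79 ± 0.15 (edgeR adjusted p = 8.3e-13) at 78 h, and Tshz2 reached 4.08 ± 0.27 (edgeR adjusted p = 5.9e-10).

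Tshz3 rose by 0.97 ± 0.10 at 78 h (edgeR adjusted p = 1.1e-07), under the fold threshold, which it passed without replicate 2 of day 2 (1.02) or replicate 1 of untreated 78 h (1.04). It also passed at 78 h without a filter on low counts (1.019), with at least 10 counts in every library (1.007) and with library totals (1.105). All 3 untreated libraries of that time lay above all 3 of day 2. Tle6 changed by -1.83 ± 0.22 (edgeR adjusted p = 1.2e-06) at 78 h and by -0.87 ± 0.18 at 42 h (edgeR adjusted p = 0.00054), which did not pass the fold threshold. At 30 h all 3 untreated libraries had low Y-chromosome genes and all 3 day 2 libraries did not, so that this difference and the time cannot be told apart there. Within the later library series, with replicate 3 as the only day 2 library, the log2 ratios of mean CPM at 78 h were 6.23 for Zfp503, 5.96 for Zbtb16, 5.05 for Zfp703, 3.85 for Tshz1 and -1.56 for Tle6. At 66 h they were 5.97, 5.55, 4.58, 3.45 and -1.25 in the same order of genes.

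**Figure D4:**
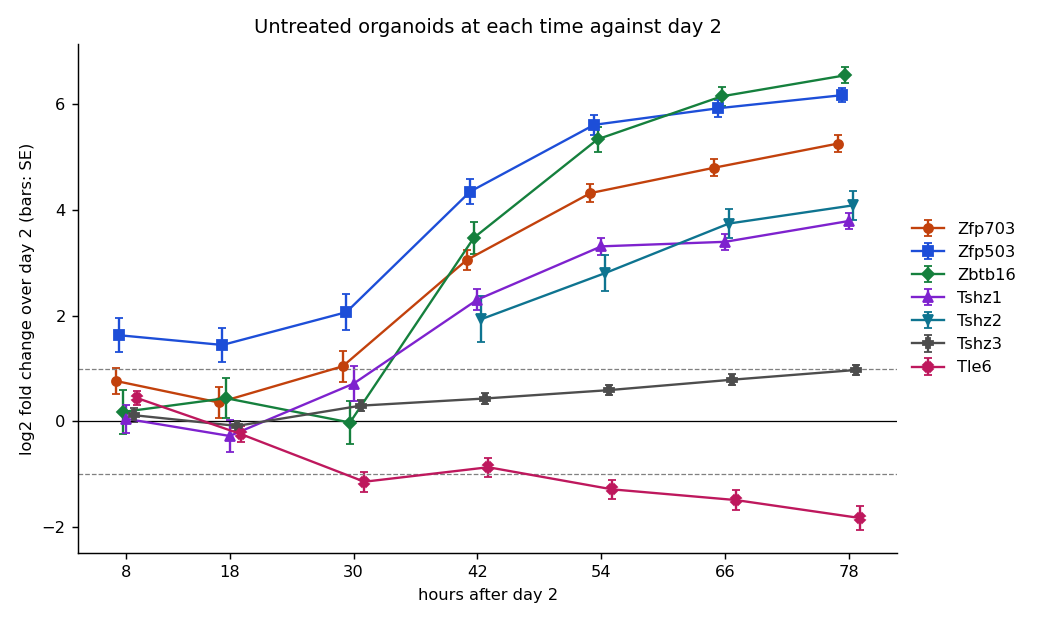
Log2 fold change of untreated organoids over day 2 at each time for the 7 genes, with bars of 1 SE and dashed lines at the fold thresholds of 1 and -1. Zfp503, Zbtb16, Zfp703, Tshz2 and Tshz1 end between 3.79 and 6.54, Tshz3 ends at 0.97, and Tle6 declines to -1.83; Tshz2 has no value before 42 h because too few reads were counted.

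Across the 15 condition means of log2(CPM + 1), which share libraries and a common time course and are given as a description, Zfp503 and Zbtb16 ran most alike (Pearson r = 0.959, n = 15 conditions). Zfp703 and Tshz1 had r = 0.882. Tle6 was the least like the others, with r of 0.559 to Zfp703, 0.397 to Tshz1 and between -0.234 and 0.043 to the remaining 4.

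Among 14314 genes with a mean of at least 1 CPM, the genes whose condition means followed each of the 7 most closely were listed. For Zfp703 they were the Hox genes Hoxa3 (r = 0.984) and Hoxb2 (r = 0.963), which encode positional factors of the hindbrain, and Ptprz1 (r = 0.975), a receptor phosphatase. Hoxa3 went from 0.557 CPM on day 2 to 21.2 CPM at 8 h of RA and 32.9 CPM at 18 h, then to 17.9 CPM at 78 h. For Zbtb16 they were Nr2f1 (r = 0.991), an orphan nuclear receptor, Boc (r = 0.989), a co-receptor of hedgehog ligands, and Dok3 (r = 0.988), an adaptor protein. Nr2f1 read 0.343 CPM at 8 h of RA, 2.21 CPM at 18 h and 55.1 CPM at 42 h.

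For Zfp503 the closest were Edaradd (r = 0.986), Kctd1 (r = 0.985) and Pfkfb4 (r = 0.984), an enzyme of glycolytic control. For Tshz2 they were the POU factor Pou3f2 (r = 0.988), the homeobox gene Msx3 (r = 0.987) and Pafah1b2 (r = 0.985). None of these remained among the closest 3 with log2(CPM + 0.1), where Galnt16, Cald1 and Mir124-2hg took their place. For Tshz3 they were Homer3 (r = 0.980), 2810410L24Rik (r = 0.978) and the polarity gene Pard3b (r = 0.977). For Tle6 they were Tcp11 (r = 0.984), Aqp3 (r = 0.979), a water and glycerol channel, and Tnfsf12 (r = 0.977), a TNF-family ligand. Aqp3 stood at 236 CPM at 8 h of RA, 158 CPM at 18 h and 32.6 CPM at 78 h.

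For Tshz1 the closest gene was its own neighbour Zadh2 (r = 0.992), an oxidoreductase gene that starts 357 bases away on the opposite strand, followed by Gm15050 and Flrt3 (both r = 0.988). Zadh2 rose with RA at all 7 times, from 10.6 ± 4.53 CPM (SD, n = 3) against 1.38 ± 0.14 CPM at 8 h, a log2 fold change of 2.94 ± 0.36 (SE; edgeR adjusted p = 0.0034), to 95.2 ± 23.3 against 2.71 ± 0.66 CPM at 30 h. At 30 h its log2 fold change was 5.13 ± 0.26 (edgeR adjusted p = 3.5e-05) and at 78 h 1.43 ± 0.12 (edgeR adjusted p = 3.5e-06). Zadh2 was named for its likeness to Tshz1 and its number of calls under RA, so these adjusted p values are a description. In the untreated arm Zadh2 was called higher than on day 2 from 30 h on, reaching 3.82 ± 0.15 (edgeR adjusted p = 9.3e-13) at 78 h. The same libraries were low for both genes, since Zadh2 in the third replicate of RA at 8 h stood at 0.434 times the mean of the other 2 and in replicate 2 of RA at 30 h at 0.629 times.

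Tle6 sits among further members of its family, and 2 of them moved with it. Tle2, a full-length Groucho corepressor 59 bases away, rose with RA at all 7 times, from 5.87 ± 0.47 against 1.31 ± 0.34 CPM (SD, n = 3) at 8 h, a log2 fold change of 2.16 ± 0.23 (SE; edgeR adjusted p = 0.0017). At 18 h it stood at 2.89 ± 0.19 (edgeR adjusted p = 6.1e-08) and at 78 h at 2.63 ± 0.25 (edgeR adjusted p = 6.8e-06). The ends of Tle2 and Tle6 face each other, and the strand setting of the counting is not given in the sources used here. Whether reads of Tle6 were counted for Tle2 was not tested. Aes, a short TLE gene 24542 bases from Tle6, rose at 5 of 7 times. It read 70.7 ± 5.62 against 24.8 ± 1.38 CPM at 18 h, a log2 fold change of 1.52 ± 0.07 (edgeR adjusted p = 1.7e-09), and 1.70 ± 0.08 (edgeR adjusted p = 3.7e-08) at 78 h. Tle2 and Aes were named for their number of calls under RA, so their adjusted p values are a description. Over the 15 conditions Tle6 had r = 0.968 with Tle2, 0.927 with Aes and 0.127 with Gna11, a G-protein gene 45714 bases away. In replicate 2 of RA at 30 h Tle2 stood at 1.85 times and Aes at 1.24 times the mean of the other 2 libraries. In replicate 3 of RA at 8 h, however, Aes stood at 1.88 times that mean and Tle6 at 0.998 times.

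**Figure D5:**
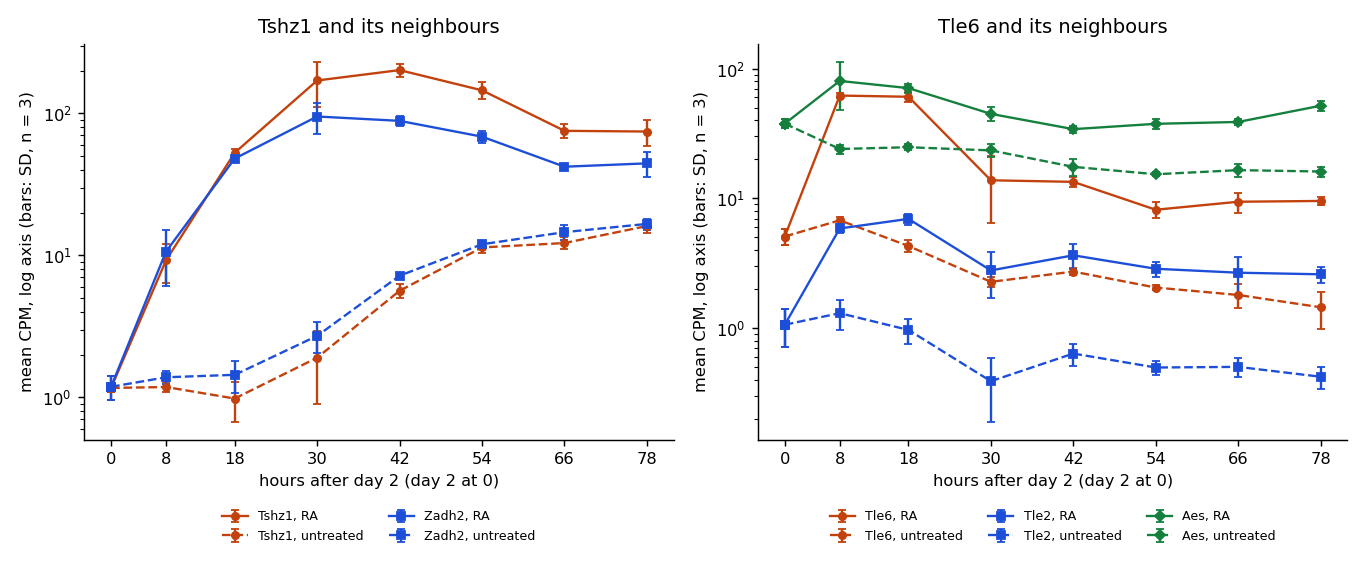
Mean CPM on a log axis against hours after day 2 for Tshz1 and Zadh2 (left) and for Tle6, Tle2 and Aes (right), with RA as solid and untreated as dashed lines and bars of 1 SD over 3 libraries. Tshz1 and Zadh2 both peak under RA at 30 h to 42 h and end lower, and Tle6, Tle2 and Aes each lie higher with RA than without at every time after day 2.

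Of all 35 annotated genes within 50 kb of the 7, 17 had enough reads to be tested at some time. RA raised 4 of them at 1 or more times (Zadh2, Tle2, Aes and C130012C08Rik) and lowered 1 (Gm26883), beside 16.0% and 9.14% of all genes tested. The median log2 fold change of the tested neighbours was 0.18 at 8 h and 0.21 at 78 h, beside 0.02 and 0.00 over all genes. C130012C08Rik, an unclassified transcript 2835 bases from Zfp503 on the other strand, was at 0 counts on day 2 and rose with RA late, to 4.24 ± 0.41 against 1.05 ± 0.12 CPM at 78 h, a log2 fold change of 2.03 ± 0.18 (edgeR adjusted p = 4.5e-06).

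Other genes of the same families were counted for comparison. Of 39 other Zbtb genes in the table, 38 were tested, 4 were raised by RA at 1 or more times and 2 were lowered, beside 16.0% and 9.14% of all genes tested, so that these shares are not above the background. Their median log2 fold change was 0.10 at 8 h and 0.12 at 78 h. The genes called at most times were Zbtb7c, Zbtb10 and Zbtb42, which all rose. Zbtb7c read 9.26 ± 2.09 against 2.71 ± 0.40 CPM (SD, n = 3) at 8 h, a log2 fold change of 1.78 ± 0.22 (SE; edgeR adjusted p = 0.0033), and was the only other Zbtb gene raised at that time. Zbtb10 was raised from 30 h on, with 1.11 ± 0.05 at 78 h (edgeR adjusted p = 2.1e-08), and Zbtb42 from 18 h to 54 h, with 1.45 ± 0.17 at 42 h (edgeR adjusted p = 4.2e-05). The others called, named after their values were seen, were Zbtb4 (raised at 18 h and 42 h), Zbtb8a (lowered from 30 h to 54 h) and Zbtb7b (lowered at 18 h).

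Of 18 other TLE genes and corepressors, all tested, 4 were raised at 1 or more times and 2 were lowered, which is near the same 16.0% and 9.14% of all genes, and their median log2 fold change was -0.02 at 8 h and 0.07 at 78 h. Besides Tle2 and Aes, Bmi1, a Polycomb protein, was raised from 30 h to 66 h, with 1.68 ± 0.14 at 30 h (edgeR adjusted p = 0.00022). Sin3b was the fourth raised gene, at 78 h alone. Tle4, a full-length Groucho gene, fell to 102 ± 7.96 against 285 ± 18.2 CPM (SD, n = 3) at 18 h, a log2 fold change of -1.47 ± 0.06 (edgeR adjusted p = 1.1e-09). The corepressor Ctbp2 was lowered at 30 h and 42 h, with -1.41 ± 0.09 at 30 h (edgeR adjusted p = 9.0e-05).

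The partners of Tle6 in the subcortical maternal complex were not called at the early times. Of 7 such genes 4 had enough reads to be tested, and none of the 4 was called at 8 h or 18 h. Ooep read 47.6 ± 5.30 against 32.1 ± 2.95 CPM (SD, n = 3) at 8 h, a log2 fold change of 0.58 ± 0.11 (SE; edgeR adjusted p = 0.021). Khdc3 was raised at 66 h and 78 h, with 1.67 ± 0.33 at 78 h (edgeR adjusted p = 0.0017), at a mean of 2.48 against 0.799 CPM. In the untreated arm 3 of these 4 genes, Ooep, Khdc3 and Nlrp4f, were called lower than day 2 at 30 h, 54 h, 66 h and 78 h. At these times 10.7% to 13.6% of all genes tested were called lower. At 42 h, for which no share of all genes is given here, the median log2 fold change of the 4 was -1.67, beside 0.02 over all genes tested. Of the pluripotency markers, 3 of 4 were called lower at 30 h, 66 h and 78 h, and 2 of 4 at 54 h. Their median log2 fold change at 42 h was -1.28. Ooep fell by 3.01 ± 0.09 on the log2 scale by 78 h (edgeR adjusted p = 4.7e-14).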

How the data were processed

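Poly(A) RNA of 45 libraries was measured with a directional kit and 75-base single-end reads. The authors trimmed reads with Trim Galore 0.5.0, removed abundant sequences with Bowtie2 2.3.4.1, mapped the rest with STAR on GRCm38 and its Ensembl gene models, and summed reads per gene with featureCounts of Subread 1.6.2, per the labels' processing notes and the study's methods. They deposited raw counts per gene, without normalization or pooling. All columns were matched by the library number in the sample titles. No replicate pair of the 45 within groups agreed within sampling noise (lowest mean chi-square per gene 1.98, where 1 is expected from counting). Replicate 2 of RA at 30 h gave 90.6 and 113 against replicates 1 and 3, which gave 9.18 with each other. Replicate 3 of RA at 8 h gave 46.0 and 42.9 against replicates 1 and 2, which gave 5.57. The highest value of any other pair was 15.3, in RA at 78 h.

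From the deposited counts, edgeR 4.0.16 in R 4.3.3 was run for each comparison on its 6 libraries (TMM, filterByExpr with minimum count 10 and total 15, glmQLFit, glmQLFTest), with Benjamini-Hochberg adjusted p below 0.01 and a log2 fold change beyond 1, after the study's thresholds. The SE is the log2 fold change divided by the square root of F. On simulated counts with 200 genes changed by 2 on the log2 scale, edgeR recovered 82% of them for RA at 8 h (15534 genes run) and 98% for untreated 18 h against day 2 (15793 genes run). Replicates are labelled as biological. Reads carry no molecular identifiers, so the detection floor covers counting error only.

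The 7 genes and all lists were chosen with earlier results of these data known. Named are the 7 genes, the 3 genes called at most times in each list, and the 3 genes most like each of the 7 by Pearson's r. Further genes of lists were named after their values were seen, among them C130012C08Rik, Gm26883, Tle4, Ctbp2 and Sin3b. Deviations of same-numbered libraries correlated above 0.1 in all 3 pairs for RA against untreated at 66 h (0.561, 0.261 and 0.264), where the numbers were taken to pair samples, and in no other comparison. Alternatives were DESeq2 1.42.0, scaling by RLE or by library totals, 1 fit of all libraries, other filters, a looser threshold, a replicate block and each library left out. Values within a library series were added after the data were seen.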

Additional observations from a re-analysis of the deposited data

How the results depend on the processing

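Counts of the 7 genes raised by RA stayed within 1.5 times under RLE size factors, library totals, DESeq2, 1 fit of all libraries, both filters and the replicate block. With an adjusted p below 0.05 and no minimum fold the count at 66 h became 6, and leaving out 1 library gave 2 to 4 at 8 h, 4 to 5 at 30 h and 3 to 4 at both 66 h and 78 h. Against day 2, the looser threshold gave 3 genes higher at 8 h and 1 lower at 42 h, DESeq2 gave 1 higher at 30 h, and at least 10 counts in every library gave 3 higher at each of 42 h, 54 h and 66 h, with fewer genes tested. Leaving out 1 library gave 0 to 1 higher at 8 h and at 18 h, 1 to 2 at 30 h and 5 to 6 at 78 h. The looser threshold gave 20 other Zbtb genes raised and 15 lowered, 7 TLE genes and corepressors raised and 8 lowered, and 12 neighbours raised and 3 lowered. Library totals left 1 other Zbtb gene lowered. Neighbours lowered were 2 without a filter or with DESeq2 and 0 with that stricter filter. Leaving out 1 replicate number gave 0 to 3 neighbours lowered, and 4 to 5 other Zbtb genes raised and 1 to 3 lowered.

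With the replicate number as a block the count of genes raised by RA at 66 h was 3 and no call changed. There the numbers were taken to pair the libraries from their correlations, and the titles state no pairing. At 8 h, where the numbers were not taken to pair libraries, the block left 3 genes raised and Zfp503, at 2.12, was lost. Library totals moved the median of all genes by up to 0.14 on the log2 scale (RA at 30 h). Under them Zbtb16 with RA at 66 h reached 1.05 and Tshz3 untreated at 78 h 1.10, both past the fold threshold, and 1 fit of all libraries gave Zbtb16 1.01. The sign of values that were not called turned for Zbtb16 untreated at 30 h, to 0.011 with library totals and 0.033 with the block, and between -0.332 and 0.445 on leaving out 1 library. It also turned on leaving out 1 library at 8 h untreated, where Zbtb16 ranged from -0.134 to 0.649, Tshz1 from -0.023 to 0.092 and Tshz3 from -0.048 to 0.262. With a pseudocount of 0.1 the 3 genes most like a gene changed for 6 of the 7. The causes were not tested.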
